A study of Mus musculus with 4 samples.

Results

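Transglutaminases and peptidylarginine deiminases modify the structural proteins that harden the skin surface and the hair, and 8 of their genes were followed here in sorted skin cells from mouse pups after induction of the microRNA miR-203. The members were Tgm1, Tgm2, Tgm3, Tgm5, Padi1, Padi2, Padi3 and Padi4, taken as every probe set annotated to exactly 1 of these genes. There were 14 such probe sets among 45037, 10 for the transglutaminases and 4 for the deiminases, and 13 of the 14 passed the filter on low values, a mean log2 value of at least 4.17. The induced pups carried 3 transgenes, K14-rtTA, TRE-miR-203 and K14-H2BGFP. Their littermates, labelled WT and uninduced, carried TRE-miR-203 and K14-H2BGFP without the activator, so that rtTA and miR-203 induction cannot be told apart between the groups. All pups were of FVB background and 4 days old, and the doxycycline injection preceded the harvest by 24 h. Keratin 14, whose promoter drives rtTA, is made in the basal epidermis and the outer root sheath of the follicle. RNA came from cells sorted by flow cytometry, and each group holds 2 arrays called biological replicates. The sources used here give neither the sorting gate nor whether an array stands for 1 pup or a pool.

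The mature strand of the induced microRNA is shown with its seed, bases 2 to 8, in capitals, as RefSeq gives it for GRCm38.p6 on chromosome 12, plus strand. No probe set of the 14 measures it.
mmu-miR-203-3p: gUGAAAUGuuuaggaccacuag

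Transglutaminases are calcium-dependent enzymes that join glutamine to lysine side chains between proteins. Transglutaminase 1, and with it transglutaminases 3 and 5, crosslinks involucrin, loricrin and small proline-rich proteins into the cornified envelope of the epidermis, while transglutaminase 3 also acts on trichohyalin in the inner root sheath and medulla of the hair. Peptidylarginine deiminases, likewise calcium dependent, convert arginine to citrulline. Citrullination loosens filaggrin and trichohyalin and so prepares them for breakdown or for crosslinking. Type 1 deiminase works on keratins and filaggrin in the epidermis and is also found in the follicle, and type 3 is prominent in the inner root sheath and hair cuticle. Type 2 is widespread in muscle, brain and other tissues, and type 4 is known from granulocytes, where it citrullinates histones. In humans, variants of PADI3, TGM3 and TCHH, the gene of trichohyalin, underlie uncombable hair syndrome, variants of TGM1 a lamellar ichthyosis, and variants of TGM5 a peeling skin of hands and feet. In the mouse, mutations of Tgm3 give the wavy coat of wellhaarig animals.

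The 4 arrays were alike in scale. Their medians were 4.78 and 4.76 in the induced group and 4.74 and 4.79 in the control group, in log2 RMA units, where RMA turns the probes of a set into 1 normalized brightness, and Pearson's r across probe sets was 0.994 within the induced group, 0.995 within the control group and 0.991 to 0.993 between groups. Induced replicate 1 stood apart in sex-linked transcripts. Eif2s3y, of the Y chromosome, had log2 values of 9.38 and 2.72 in the induced arrays, against 2.82 and 2.52 in the control arrays. Xist, of the inactive X chromosome, had 5.86 and 11.19 in the induced arrays, against 10.57 and 10.80 in the control arrays. Keratinocyte RNA was abundant in all 4 arrays, and Krt14 had 14.01 and 13.96 in the induced arrays, against 14.10 and 14.13 in the control arrays.

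Among the 8 genes, groups without overlap were found for 3 deiminases and 0 transglutaminases, and the largest difference was that of Padi3. Each gene was represented by its brightest probe set. Under other settings some transglutaminases had no overlap either, Tgm1 and Tgm2 after another quantile normalization, Tgm2 with the mean of its kept probe sets and Tgm5 with arrays centred on their medians. Both induced arrays lay above both control arrays for 3 of the 8 genes, Padi1, Padi3 and Padi4, where the same was true of 20.1% of the 13489 named genes. Both lay below for 0 of the 8, against 19.3% of all genes. The induced mean was the higher one in 8 of 8 genes, against 49.6% of all genes, and the median difference was 0.11 over the 8 genes and -0.00 over all genes (induced minus control, log2). In these brightest probe sets the transglutaminase genes differed by 0.07 to 0.12, and the deiminase genes by 0.11 to 1.01. Of the other kept probe sets of Tgm2, 3 were higher in both induced arrays, with differences of 0.33 to 0.35. Another 1 was lower in both, at -0.16. In limma's test 0 of the 8 genes, and 0% of all genes, had an adjusted p under 0.05, whereas 3 of the 8 genes had an unadjusted p under 0.05 with a higher induced mean, as had 4.40% of all genes. With 2 arrays against 2, the smallest two-sided p of an exact permutation test of a single gene is 0.333.

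**Figure D1:**
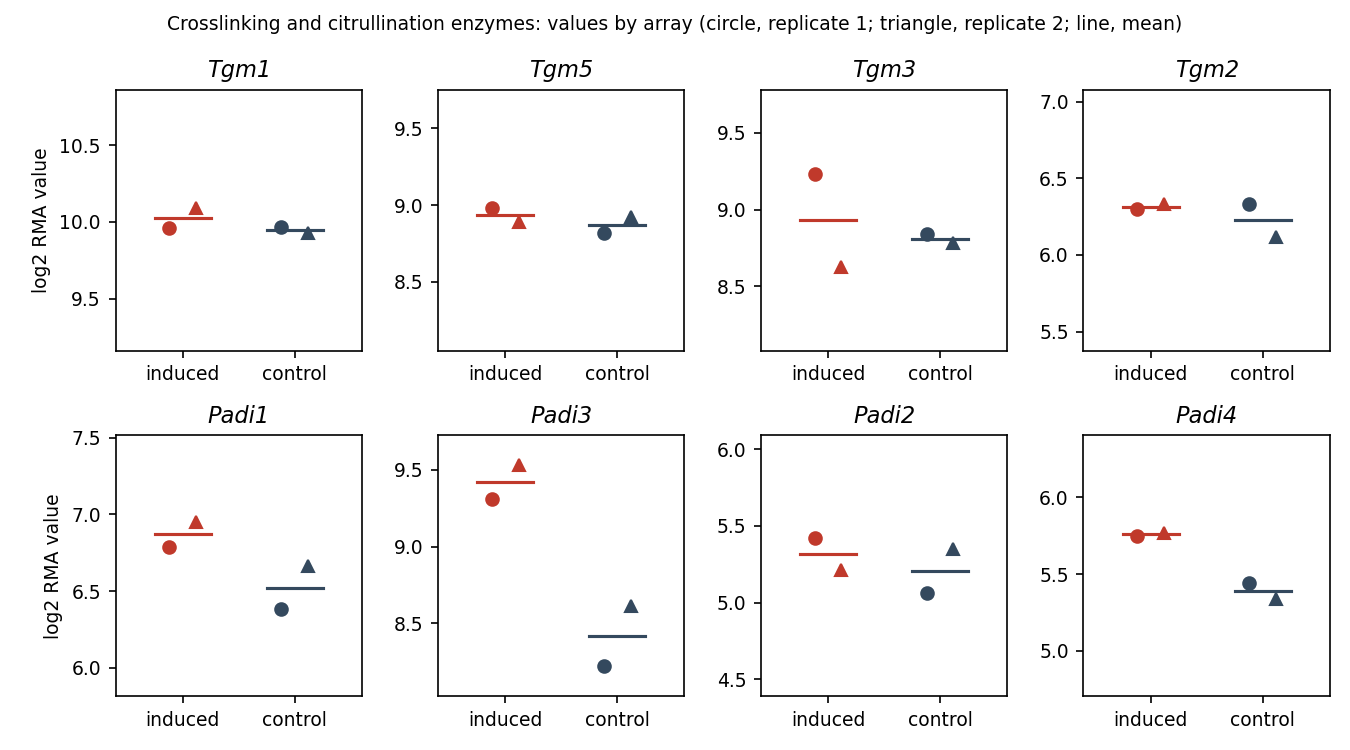
Log2 RMA values of the 8 genes by array, in the brightest probe set of each gene, with induced arrays at the left and control arrays at the right of each panel. Circles are replicate 1, triangles replicate 2 and lines the means, and every panel spans the same height. The induced values of Padi1, Padi3 and Padi4 lie above both control values, and in the other 5 panels the groups overlap.

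Padi3, the deiminase of the inner root sheath and hair cuticle, was the member that differed most. Its log2 value was 9.31 and 9.53 in the induced arrays, against 8.22 and 8.61 in the control arrays. Both induced arrays were high and both control arrays low, and the gap between the groups exceeded the spread within either. In such bulk RNA, more cells of a type and more RNA per cell cannot be told apart. The means were 9.42 ± 0.16 in induced and 8.41 ± 0.28 in control arrays (SD, n = 2 each), a difference of 1.01 ± 0.16 (SE), which is 2.01-fold higher. Its adjusted p in limma was 0.197, with an unadjusted p of 8.74e-04. An induced mean at least 1.5-fold higher, without overlap, was found for 1 of the 8 genes, this one, and for 1.0% of all genes. When limma's variance prior was allowed to follow the mean level and to resist outlying variances, the adjusted p of Padi3 was 0.0336, and 0.600% of all genes were called by that form. Over all alternatives tried, its adjusted p ran from 0.0336 to 0.739. The difference was 1.12 without induced replicate 1, which holds the Y-linked transcripts, and 0.90 without induced replicate 2. It was 0.81 without control replicate 1 and 1.21 without control replicate 2. As the groups do not overlap, leaving out any 1 array could change the size but not the direction.

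Padi4, the deiminase best known from granulocytes, was a member with close replicates. Its log2 value was 5.75 and 5.77 in the induced arrays, against 5.44 and 5.34 in the control arrays. The groups did not overlap, and the difference of 0.37 ± 0.10 (SE) is 1.29-fold (adjusted p = 0.327 in limma). Of 9 granulocyte and myeloid markers on the array, 5 passed the filter, and their mean log2 value was 5.98 and 5.51 in the induced arrays, against 5.54 and 5.64 in the control arrays. Cd177, the granule genes Mpo and Ngp and the integrin gene Itgam did not pass the filter at 4.17. Of the 5 that passed, 2, Camp and Csf3r, had both induced arrays above both control arrays, against 20.1% of all genes. Both lay below in 0 of the 5, against 19.3% of all genes. Ngp and Itgam, below the filter, were also higher in both induced arrays. Camp, the gene of an antimicrobial granule peptide, had 4.57 and 4.62 in the induced arrays, against 4.47 and 4.56 in the control arrays. Elane, which also passed, overlapped, with 4.40 and 4.07 in the induced arrays, against 4.15 and 4.39 in the control arrays. Mpo and Cd177 overlapped too. Mpo had 4.29 and 3.73 in the induced arrays, against 4.16 and 4.32 in the control arrays. For Cd177 the values were 3.05 and 3.42 in the induced arrays, against 3.14 and 3.22 in the control arrays. Itgam had 3.92 and 3.69 in the induced arrays, against 3.44 and 3.42 in the control arrays, and Ngp had 4.20 and 4.26 in the induced arrays, against 4.01 and 3.99 in the control arrays. S100a8, which stressed keratinocytes express too, had 8.51 and 7.64 in the induced arrays, against 7.51 and 7.69 in the control arrays, and was thus high in induced replicate 1 alone. S100a9, its partner, had 7.92 and 6.75 in the induced arrays, against 7.43 and 7.33 in the control arrays. Csf3r, the receptor for granulocyte colony-stimulating factor, had 4.48 and 4.47 in the induced arrays, against 4.15 and 4.25 in the control arrays. Apart from S100a8 and S100a9, the values of these markers lie close to or below the filter. Whether myeloid cells contributed to the Padi4 signal was not tested.

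Padi1, the epidermal deiminase, had log2 values of 6.79 and 6.95 in the induced arrays, against 6.38 and 6.66 in the control arrays. The groups did not overlap, but the gap between the lower induced and the higher control array was smaller than the spread of the control arrays. The difference was 0.35 ± 0.13 (SE), or 1.28-fold (adjusted p = 0.461 in limma), and it was 0.21 without control replicate 1, which had the lowest value, and 0.27 without induced replicate 2. Padi2, the widespread deiminase, had 5.42 and 5.21 in the induced arrays, against 5.06 and 5.35 in the control arrays. The groups overlapped, with a difference of 0.11 ± 0.14 (adjusted p = 0.877 in limma), which was -0.04 without control replicate 1. Each deiminase had a single probe set, so none of these values has a check from a further probe set.

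The deiminase genes form a cluster on chromosome 4, where the RefSeq gene table of GRCm38 lists 5 of them in an unbroken row of protein-coding genes. From the side of Rcc2 to that of Sdhb their order is Padi6, Padi4, Padi3, Padi1 and Padi2. Padi3 lies in the middle of this row and had the largest difference of the 5, with Padi4 (0.37 ± 0.10 SE) and Padi1 (0.35 ± 0.13) as its immediate neighbours and Padi2 (0.11 ± 0.14) beyond Padi1. Padi6, the deiminase of the oocyte and early embryo, was lower in both induced arrays, with 4.03 and 4.12 in the induced arrays, against 4.48 and 4.40 in the control arrays. Its induced values lay below the filter level of 4.17, so that its size is not interpreted. Of the flanking genes, Rcc2 had overlapping groups. In Sdhb both induced arrays lay above both control arrays, as in 20.1% of all genes, with a difference of 0.15 ± 0.11 (SE). Rcc2, a regulator of chromosome condensation, had 8.87 and 9.29 in the induced arrays, against 9.0 and 9.02 in the control arrays. Sdhb, a subunit of succinate dehydrogenase, had 10.83 and 10.99 in the induced arrays, against 10.81 and 10.71 in the control arrays.

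**Figure D2:**
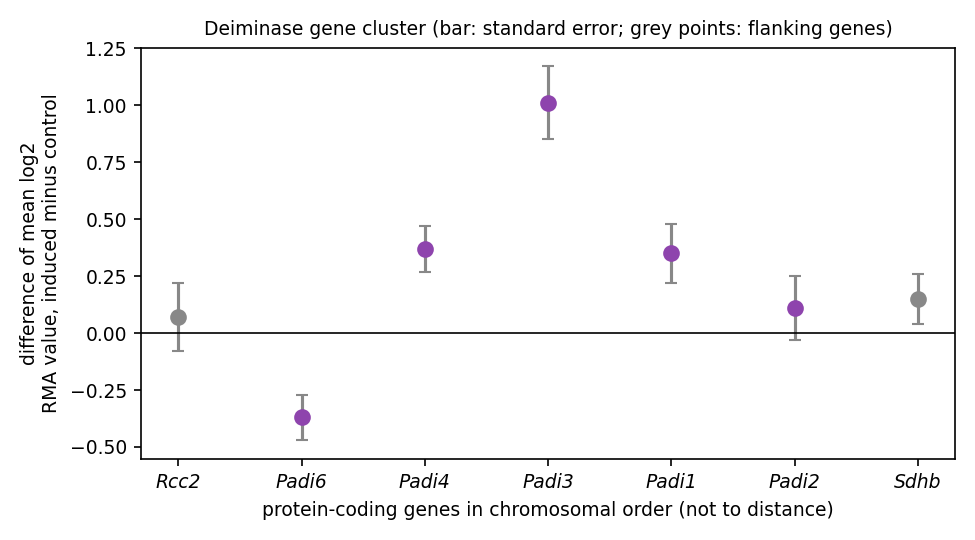
Difference in mean log2 RMA value, induced minus control, for the deiminase genes and both flanking genes, in chromosomal order without regard to distance. Points are differences and bars standard errors of the model, and grey points are the flanking genes. Padi3 stands highest at 1.01, its neighbours Padi4 and Padi1 lie at 0.37 and 0.35, and Padi6 lies at -0.37.

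The sequences before the start sites of the 3 neighbouring deiminase genes without overlap, and of Tgm3 as the other follicle enzyme, are given because these members share either a location or a tissue. RefSeq promoter windows were found for 7 of the 8 genes, Tgm2 being the exception. Each line holds the 250 bases before the annotated start, 5′ to 3′ on the gene's strand, from GRCm38.p6. Capitals mark matches, on either strand, to 4 motifs: the CCAAT box (CCAAT), the TATA box (TATAAA), the AP-1 site (TGANTCA) and the GC box (GGGCGG).
Padi3, chr4:140810649-140810898, minus strand: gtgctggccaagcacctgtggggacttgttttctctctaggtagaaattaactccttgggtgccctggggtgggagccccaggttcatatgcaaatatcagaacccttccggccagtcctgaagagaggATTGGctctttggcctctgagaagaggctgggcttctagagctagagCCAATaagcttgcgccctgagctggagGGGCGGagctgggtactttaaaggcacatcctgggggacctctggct
Padi4, chr4:140774204-140774453, minus strand: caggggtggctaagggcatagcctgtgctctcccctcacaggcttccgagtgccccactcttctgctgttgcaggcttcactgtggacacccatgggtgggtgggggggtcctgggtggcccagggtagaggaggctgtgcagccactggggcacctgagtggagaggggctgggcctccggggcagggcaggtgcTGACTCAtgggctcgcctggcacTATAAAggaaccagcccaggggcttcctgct
Padi1, chr4:140845779-140846028, minus strand: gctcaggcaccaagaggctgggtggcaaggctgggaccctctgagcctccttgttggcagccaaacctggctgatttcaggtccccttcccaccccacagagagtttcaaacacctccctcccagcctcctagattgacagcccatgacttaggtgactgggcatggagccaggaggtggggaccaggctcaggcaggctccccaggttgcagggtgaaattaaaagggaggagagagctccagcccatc
Tgm3, chr2:130012090-130012339, plus strand: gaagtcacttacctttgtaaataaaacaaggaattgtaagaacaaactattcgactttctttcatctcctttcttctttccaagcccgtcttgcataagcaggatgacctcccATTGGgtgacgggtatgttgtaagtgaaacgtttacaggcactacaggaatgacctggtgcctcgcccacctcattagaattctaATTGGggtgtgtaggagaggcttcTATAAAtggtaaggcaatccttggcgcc

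The window of Padi3 held a CCAAT box at 74 and its reverse complement at 121 bases before the start, and a GC box at 47. That of Padi4 held a TATA box at 31 and an AP-1 site at 54 bases before the start, while the window of Padi1 held none of the 4 motifs. The window of Tgm3 held a TATA box at 28 bases and 2 reversed CCAAT boxes at 52 and 137 bases. As the window of Padi1 held none, no motif of the 4 could be common to Padi1, Padi3 and Padi4. The windows of Padi3 and Padi4 shared none of the 4 either. Among all 32851 promoter windows of this length, 33.8% held a CCAAT box, 32.7% a GC box, 12.4% a TATA box and 6.75% an AP-1 site. None of the 4 motifs overlaps another in these windows. The matches describe the letters and not binding.

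Tgm1 and Tgm5 had overlapping groups and small differences. Tgm1, the membrane-anchored enzyme of the granular layer, had log2 values of 9.96 and 10.09 in the induced arrays, against 9.97 and 9.93 in the control arrays. Tgm5, which acts in the same layers, had 8.98 and 8.89 in the induced arrays, against 8.82 and 8.92 in the control arrays. In each case 1 induced array lay among the control values. The differences were 0.07 ± 0.10 (SE) for Tgm1 (adjusted p = 0.885 in limma) and 0.07 ± 0.10 for Tgm5 (adjusted p = 0.904), smaller than their errors. Each gene had a single probe set.

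Tgm3, the transglutaminase of hair and epidermis, split the induced arrays. In its brighter probe set it had 9.23 and 8.63 in the induced arrays, against 8.84 and 8.78 in the control arrays. Induced replicate 1 was above both control arrays and induced replicate 2 below them. The second probe set had 8.22 and 7.64 in the induced arrays, against 7.71 and 7.64 in the control arrays. There too induced replicate 1 alone was high. The differences were 0.12 ± 0.20 (SE, adjusted p = 0.921 in limma) and 0.26 ± 0.20 (adjusted p = 0.736). In the brighter probe set the difference was -0.18 without induced replicate 1 and 0.42 without induced replicate 2, so that its direction rested on 1 array. Induced replicate 1 also holds the Y-linked transcripts, and whether the sex of the animals bears on Tgm3 was not tested. Padi3, by contrast, was higher in both induced arrays, and whether Padi3 and Tgm3 differ in their response was not tested.

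**Figure D3:**
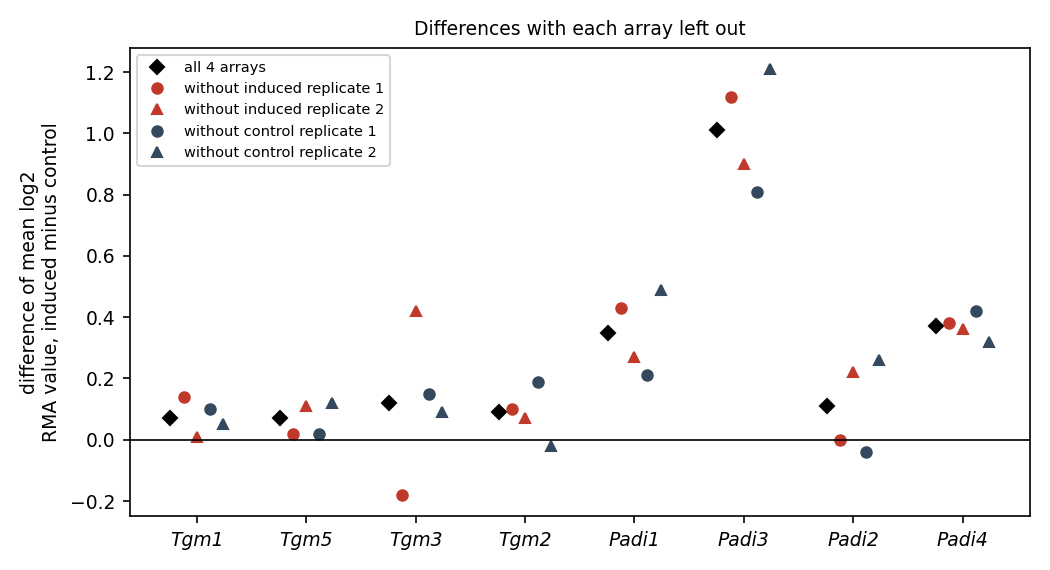
Differences in mean log2 RMA value, induced minus control, of the 8 genes with all 4 arrays (diamonds) and with each array left out in turn (circles and triangles, coloured by the group of the missing array). Padi3 stays between 0.81 and 1.21, whereas Tgm3 runs from -0.18 to 0.42.

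Tgm2, the widely expressed tissue transglutaminase, was measured by 6 probe sets that did not go one way. The brightest had 6.30 and 6.33 in the induced arrays, against 6.33 and 6.12 in the control arrays, a difference of 0.09 ± 0.11 (SE, adjusted p = 0.874 in limma) with overlapping groups. In 3 others, with induced means of 6.40, 6.05 and 5.55 against control means of 6.07, 5.72 and 5.20, both induced arrays lay above both control arrays, by 0.33 ± 0.14, 0.33 ± 0.11 and 0.35 ± 0.11 (adjusted p = 0.524, 0.400 and 0.391). The remaining 2 were dim. One passed the filter and lay lower in both induced arrays, with 4.64 and 4.44 there against 4.69 and 4.71 in the control arrays, and the other, below the filter, had 3.34 and 3.03 in the induced arrays, against 3.39 and 3.46 in the control arrays. Of the 6 probe sets, 4 thus had a higher induced mean and 2 a lower one. Several carry the suffix x, by which the manufacturer marks probes that may match other transcripts, so that the direction of Tgm2 is uncertain. Over the 13 member probe sets that passed the filter, 7 had groups without overlap, 6 higher and 1 lower, against 39.1% of all probe sets in either direction. Of these 13, 5 belong to Tgm2 and share its transcript.

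**Figure D4:**
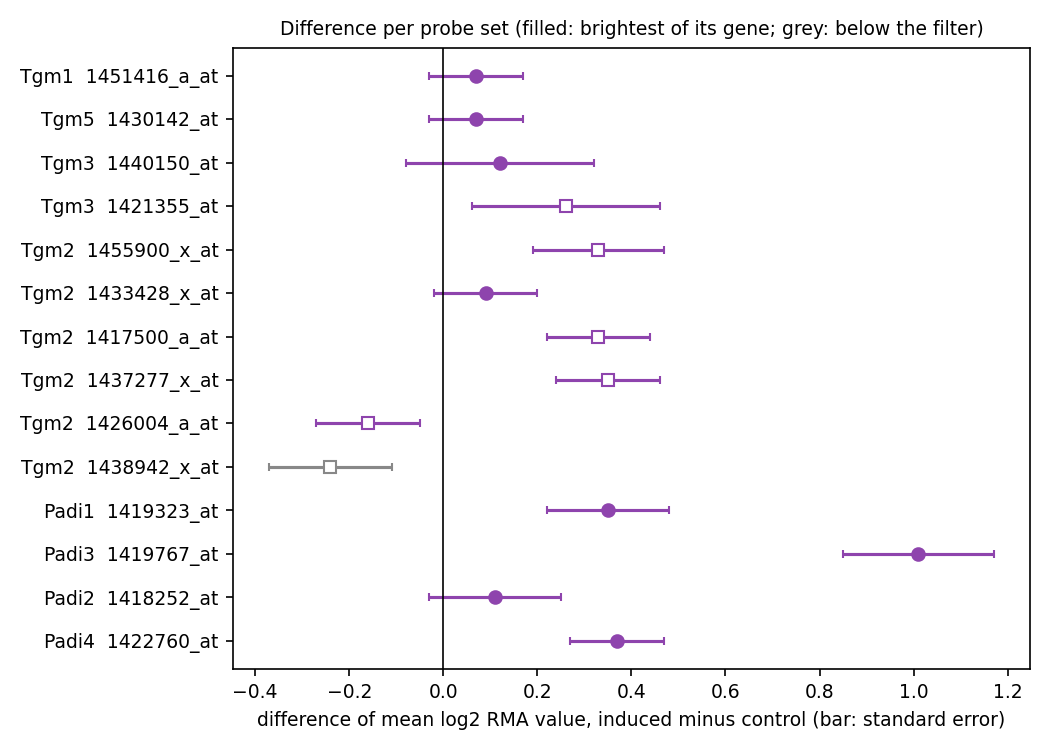
Difference in mean log2 RMA value, induced minus control, for each of the 14 probe sets, with the standard error of the model as bars. Filled symbols are the brightest probe set of a gene, open symbols its others, and grey marks the probe set below the filter. The single Padi3 probe set lies at 1.01, and those of Tgm2 spread from -0.24 to 0.35.

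The proteins that these enzymes act on, or that share their structures, were followed in a follicle and an epidermal list. Follicle proteins comprised trichohyalin, its relative Tchhl1, the hair cuticle calcium-binding protein S100a3 and the keratins of the inner root sheath. Of 11 listed genes 10 were measured, and in 10 of 10 both induced arrays lay above both control arrays, against 20.1% of all genes, with a median difference of 0.98 (log2) and a range of 0.56 to 1.35. In limma 0 of them passed at an adjusted p of 0.05, the lowest being 0.158. The mean log2 value over the list was 11.14 and 11.42 in the induced arrays, against 10.11 and 10.52 in the control arrays, and the median difference ran from 0.74 to 1.22 as each array was left out. Earlier results of these arrays already showed hair follicle genes higher, so these counts are not independent support for Padi3.

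Tchh, the chief follicle substrate of Padi3 and Tgm3, had log2 values of 12.26 and 12.48 in the induced arrays, against 11.69 and 11.93 in the control arrays. Both induced arrays were higher, by 0.56 ± 0.13 (SE) or 1.48-fold (adjusted p = 0.286 in limma). S100a3, whose human counterpart is citrullinated by the type 3 deiminase, had 11.49 and 11.56 in the induced arrays, against 10.28 and 10.75 in the control arrays, a difference of 1.01 ± 0.17 (adjusted p = 0.201). Tchhl1 had 8.06 and 8.28 in the induced arrays, against 6.61 and 7.02 in the control arrays, which is 2.55-fold higher (adjusted p = 0.158). Among inner root sheath keratins, Krt26 differed by 1.21 ± 0.16 and Krt72 by 1.13 ± 0.20, and Krt71 by 0.90 ± 0.18 (adjusted p = 0.158, 0.205 and 0.229). In all of these, as in Padi3, control replicate 1 held the lowest value of the 4 arrays. Of 7 transcription factors of the follicle, 4 had groups without overlap, all higher in the induced arrays, against 20.1% of all genes. These were Foxn1, with 7.18 and 7.02 in the induced arrays against 6.24 and 6.38 in the control arrays, Hoxc13 (0.88 ± 0.25), Msx2 (0.70 ± 0.20) and Dlx3 (0.41 ± 0.13), with adjusted p = 0.173, 0.362, 0.354 and 0.409 in limma. The other factors overlapped, Lef1 at -0.05 ± 0.19, Gata3 at 0.12 ± 0.11 and Cux1 at 0.15 ± 0.14. Lef1 and Cux1 each had 1 other probe set with the opposite sign.

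Epidermal proteins had no common direction. Of 18 on the array 17 passed the filter, 10 with a higher and 7 with a lower induced mean, and the median difference was 0.02 with a range of -0.11 to 0.50. Both induced arrays lay above both control arrays in 7 and below in 6 of the 17, against 20.1% and 19.3% of all genes, and 0 had an adjusted p under 0.05. The scaffold proteins had small differences. Ivl, the gene of involucrin, had 13.32 and 13.29 in the induced arrays, against 13.33 and 13.34 in the control arrays, and Lor, the gene of loricrin, had 14.25 in all 4. Flg, the gene of filaggrin, had 12.90 and 12.80 in the induced arrays, against 12.97 and 12.94 in the control arrays, a difference of -0.10 ± 0.10 (SE, adjusted p = 0.810 in limma). Krt10, a suprabasal keratin, differed by -0.07 ± 0.10 (adjusted p = 0.901). Lor and Krt10 were close to the highest value on the arrays (14.6), and Ivl and Flg lay further below it. Whether probe sets as bright as these can show a change was not tested. The members with the highest differences were Sprr1a (0.50 ± 0.10), Rptn (0.47 ± 0.10), Sprr1b (0.38 ± 0.10) and Sprr2d (0.29 ± 0.12), crosslinking bridges or envelope components, with adjusted p = 0.247, 0.268, 0.330 and 0.502. A difference between the follicle and the epidermal list was not tested.

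**Figure D5:**
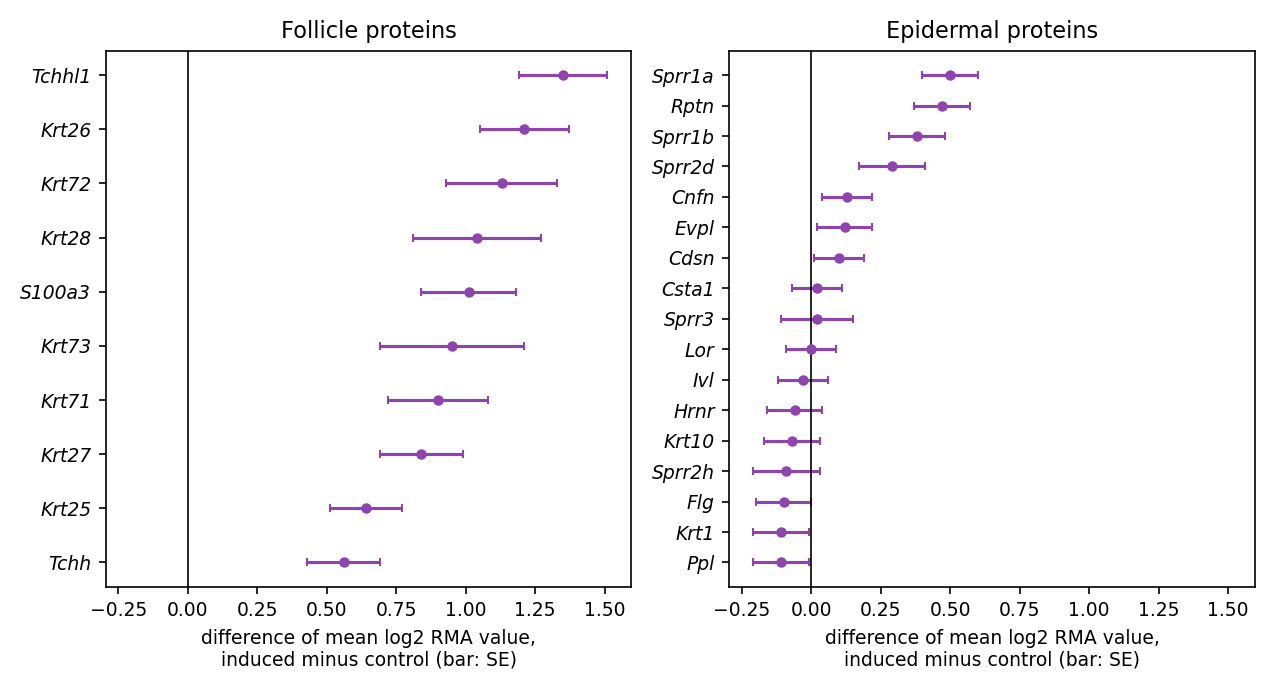
Differences in mean log2 RMA value, induced minus control, for the measured follicle proteins (left) and epidermal proteins (right) that are crosslinked or citrullinated or belong to the same structures, with the standard error of the model as bars and a shared horizontal scale. The follicle genes lie between 0.56 and 1.35, and the epidermal genes between -0.11 and 0.50.

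Genes that work beside the enzymes in the epidermis had small differences. Of 17 measured, among them proteases, their inhibitors, lipid enzymes of the envelope and transcription factors of late differentiation, 12 had a higher and 5 a lower induced mean, with a median difference of 0.07 and a range of -0.10 to 0.28. Both induced arrays lay above both control arrays in 8 and below in 1 of the 17, against 20.1% and 19.3% of all genes, and 0 had an adjusted p under 0.05. Grhl1, a grainyhead factor of epidermis and follicle, had 10.74 and 10.85 in the induced arrays, against 10.47 and 10.64 in the control arrays, a difference of 0.24 ± 0.11 (SE, adjusted p = 0.542 in limma). Ovol1, a zinc finger factor of differentiating keratinocytes, differed by 0.21 ± 0.10, S100a10, an annexin-binding envelope component, by 0.17 ± 0.10 and Abca12, the lipid transporter of lamellar granules, by 0.28 ± 0.22 (adjusted p = 0.561, 0.655 and 0.745). Casp14, a caspase that takes part in filaggrin breakdown, had 11.94 and 11.72 in the induced arrays, against 11.85 and 11.88 in the control arrays. Its other probe set had the opposite sign.

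Further members of the transglutaminase family were scarce. Tgm4, the prostate enzyme, F13a1, the A chain of coagulation factor XIII, and Epb42, the erythrocyte relative that has lost its activity, did not pass the filter. Tgm6, best known from the nervous system, had 4.65 and 5.07 in the induced arrays, against 4.48 and 4.35 in the control arrays, close to the filter, with a difference of 0.45 ± 0.16 (SE, adjusted p = 0.437 in limma).

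The genes whose 4 values ran closest to those of Padi3, once each gene's mean was subtracted, were sought among the 13488 other named genes by the root mean square distance over the 4 arrays. They were Lyg2, a lysozyme-like gene (distance 0.05), and Tm4sf1, a membrane protein, S100a3, Ctse, the gene of the protease cathepsin E, and Ly6g6g, of the Ly6 family (0.06 each, log2 units). Lyg2 had 7.48 and 7.64 in the induced arrays, against 6.30 and 6.63 in the control arrays. Ctse had 9.04 and 9.23 in the induced arrays, against 7.79 and 8.23 in the control arrays. As in Padi3, the lowest value was that of control replicate 1 and the highest that of induced replicate 2. Likeness over 4 arrays in 2 groups describes these arrays only.

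Markers of other cell types and layers were read beside these values. Of 6 basal keratinocyte genes 5 were lower in both induced arrays, against 19.3% of all genes, and their mean log2 value was 11.09 and 11.08 in the induced arrays, against 11.30 and 11.33 in the control arrays. Col17a1, a collagen of the hemidesmosome, differed most among them (-0.71 ± 0.11 SE, adjusted p = 0.188 in limma). Melanocyte genes, 8 measured, averaged 8.27 and 8.79 in the induced arrays, against 8.36 and 8.35 in the control arrays, so that the list mean was highest in induced replicate 2. Of the 8, 2 were higher in both induced arrays and 1 lower, against 20.1% and 19.3% of all genes. The 2 were Mitf, the melanocyte transcription factor, and Tyr, the gene of tyrosinase. Mitf had 8.26 and 8.56 in the induced arrays, against 8.01 and 7.99 in the control arrays. Tyr had 8.39 and 8.62 in the induced arrays, against 8.28 and 8.38 in the control arrays. The other genes overlapped. Among these, Mlana had 7.97 and 8.77 in the induced arrays, against 8.05 and 8.12 in the control arrays. Kit had 5.56 and 6.33 in the induced arrays, against 5.83 and 5.52 in the control arrays, and its other probe set had the opposite sign. Skeletal muscle genes, where Padi2 is also made, averaged 5.98 and 5.75 in the induced arrays, against 5.85 in both control arrays, with 3 of 6 below the filter. Fibroblast genes passed the filter in 3 of 6 cases, with 5.69 and 6.64 in the induced arrays, against 6.16 and 6.35 in the control arrays, and Col1a1 and Pdgfra did not pass. Of 6 endothelial genes Kdr alone passed, with 5.37 and 5.06 in the induced arrays, against 5.33 and 5.63 in the control arrays, and Pecam1 and Cdh5 did not. Langerhans and T cell genes, 5 measured, averaged 8.11 and 7.69 in the induced arrays, against 8.0 and 7.81 in the control arrays. The part of follicle, basal or melanocyte cell numbers in the values of Padi3, Padi4, Padi1 and Tgm3 was not tested.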

How the data were processed

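RNA of 4 samples was biotin-labelled for Affymetrix arrays, 1 array a sample, per the labels' protocols. The authors deposited log2 values made with RMA, per the submitters' processing notes, which give no version. RMA equalises the arrays' distributions, so a global change in RNA content is hidden. The deposited table held 45101 probe sets, of which 64 control ones were left out, and 0 columns of other samples. Of 45037 probe sets, 34945 had 1 gene in the platform annotation, 932 several and 9160 none listed; 34741 gene identifiers matched the RefSeq table of GRCm38, which gave current symbols.

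A mean log2 value at the 40th percentile (4.17) or higher was required, leaving 27022 probe sets for 13489 named genes. limma 3.58.1 in R 4.3.3 (lmFit, eBayes, two-sided, Benjamini-Hochberg adjusted p over all kept probe sets, threshold 0.05) compared the groups without a block, with 2 residual degrees of freedom, 3.82 prior degrees of freedom and a prior SD of 0.115. The probe set below the filter was fitted without it. The code of the test was checked on data simulated from limma's own variance model. That check cannot show whether these arrays follow the model. The number of arrays limits the precision, and p-values lean on the variance prior.

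The members and gene lists were chosen with earlier results of these data known. Named genes are all members, genes out of the 4 per list with the largest absolute statistic, list genes below the filter, 12 fixed names, and the 5 nearest genes to any member at least 1.5-fold apart without overlap; Rcc2 and Sdhb were added as flanking genes after values were seen. Alternatives were the filter, another quantile normalization, median centring, another variance prior, the mean of probe sets, the replicate block and leaving out each array. The replicate numbers mark no stated litter or batch.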

Additional observations from a re-analysis of the deposited data

Results flagged for a closer look

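Transcripts of the Y chromosome, which belong to no comparison of the enzymes, were far higher in induced replicate 1 than in either control array. Eif2s3y had a log2 value of 9.38 there, Kdm5d 7.14 and Uty 5.59, each in the brightest probe set of the gene. Eif2s3y had 2.72 in induced replicate 2, and 2.82 and 2.52 in the control arrays.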

How the results depend on the processing

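Of the 8 genes, 0 passed the adjusted threshold in limma with all 4 arrays, and 3 had an unadjusted p under 0.05. With eBayes set to trend and robust, 1 passed, Padi3, and 126 probe sets were called over the table in place of 0. The number of member genes without overlap was 3, and 5 after another quantile normalization, with Tgm1 and Tgm2 added; leaving out each array gave 5 to 6, where a lone array stands for its group, member genes called stayed at 0 to 0 and probe sets called were 0 to 6, the 6 being without induced replicate 2. As each array was left out the sign turned for Tgm3 (-0.18 to 0.42, negative without induced replicate 1), Padi2 (-0.04 to 0.26, negative without control replicate 1) and Tgm2 (-0.02 to 0.19, negative without control replicate 2). With an array left out, 1 group has no spread of its own and was assumed to vary like the other. Padi2 did not pass the filter at the 60th percentile. With the replicate number as a block, 0 member genes and 0 probe sets were called, 3 and 2139 having an unadjusted p under 0.05, and the difference of Padi3 was 1.01 (adjusted p = 0.395). Deviations of same-numbered arrays correlated at -0.1001, and with the control numbers crossed, chosen after seeing the data, 0 member genes and 0 probe sets were called. The list medians under the alternatives were added after seeing the data. Of the 95 member differences computed under alternatives, 91 kept direction and side of the threshold. This count overstates stability. The filter, variance prior and block settings leave the difference itself as it was, so its direction could not turn there. The 91 also include Padi2 at 0.00 without induced replicate 1. The causes of the changes between settings were not tested.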
